A study of Danio rerio with 2 samples.

Results

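The genes described are gpm6aa, gpm6ab, rgs5b, cd81b and igsf5b, 5 of the 26764 gene symbols counted in endothelial cells of the zebrafish tail. They were chosen by name, from genes with a large ratio between the 2 libraries of the series, so that ratio is given as a description and supports nothing. Each symbol had 1 row in the feature list (ENSDARG00000055455, ENSDARG00000004621, ENSDARG00000017860, ENSDARG00000022437 and ENSDARG00000090953, in the same order). Over all kept cells the counts of unique molecular identifiers (UMIs) were 220 for gpm6aa, 1671 for gpm6ab, 2401 for rgs5b, 1522 for cd81b and 152 for igsf5b.

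The cells came from tails, cut behind the end of the yolk, of AB strain embryos at 48 h post fertilisation that carried TgBAC(isl1:TagRFP) and Tg(dab2:EGFP). One sorted fraction was positive for TagRFP and EGFP and is labelled isl1-derived endothelial cells. The second was negative for TagRFP and positive for EGFP and is labelled the other endothelial cells. Both groups thus share the dab2 reporter, which marks mainly venous and lymphatic endothelium, and arterial cells in either library are those that passed that gate. Each fraction gave 1 library, called the isl1-labelled and the other-labelled library here, of a 10x Genomics 3' kit, and the number of embryos pooled is not given in the sources used here. With no replicates no test was run, and all 95% intervals cover counting error only.

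Arteries, veins and sprouting tip cells of the zebrafish tail arise from a common endothelium and are told apart by the genes they use. Arterial cells read Notch and ephrin-B2 genes, tip cells use esm1, which encodes a secreted proteoglycan, and venous and lymphatic cells carry the scavenger receptor gene stab2 and the adaptor gene dab2. The genes aqp8a.1, for a water channel, and esm1 marked the arterial and tip side here. The member genes encode proteins of the membrane and its inner face. gpm6aa and gpm6ab are the zebrafish copies of GPM6A, an M6 glycoprotein of the proteolipid family that is abundant in mammalian neurons. rgs5b encodes a regulator of G-protein signalling, a family that speeds GTP hydrolysis by G-protein alpha subunits, and mouse Rgs5 is known as a pericyte gene. cd81b encodes a copy of the tetraspanin CD81, which gathers integrins and immunoglobulin superfamily proteins in the membrane, and igsf5b encodes a member of that superfamily whose mouse counterpart is a junctional adhesion molecule.

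The reporter went against the labels. In all kept cells TagRFP had a level of 2.71 CPM (2.12 to 3.41) in the first library and 129 CPM (120 to 139) in the second, CPM being a gene's UMIs relative to all UMIs of the cells named, and isl1 itself at 1.96 and 129.6 CPM. Within endothelial cells TagRFP stood at 5.59 and 26.6 CPM, and isl1 at 2.32 (1.53 to 3.38) and 19.6 CPM (15.6 to 24.4). Of the 727 isl1 UMIs of the second library 645 lay outside the endothelial cells defined below. A neural-like cluster with isl1 among its leading genes had 22 cells, all of that library. Within its endothelial cells 3 cells held 50 of the 82 isl1 UMIs. The contrast in all kept cells thus rests mostly on cells that are not endothelial. File naming by the submitters likewise runs counter to the sample titles. The sort that each library holds is therefore uncertain, and every library ratio keeps the labels' names for its direction. Comparisons within a library do not rest on the labels.

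After filtering, 2022 cells of the isl1-labelled library and 704 of the other-labelled library were kept, with a median of 9780 and 6615.5 UMIs, and no barcode was shared. Endothelial cells were those with at least 10 UMIs per 10000 from cdh5, tie1, egfl7 and clec14a together, 1375 cells (68.0%) and 583 cells (82.8%). Their summed depth was 11634530 and 4174563 UMIs, so the other-labelled library resolves low genes less well. Cells with a gate level between 8 and 12, just either side of the threshold, numbered 66 and 18.

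Endothelial cells were split at 10 UMIs per 10000 of esm1, aqp8a.1 and stab2. The esm1-high class had esm1 and little stab2 (236 cells of the isl1-labelled library and 30 of the other-labelled library). The aqp8a.1-high class had aqp8a.1 without esm1 or stab2 (446 and 100 cells), and the stab2-high class had stab2 alone (389 and 315 cells). The mixed class had stab2 with aqp8a.1 or esm1 (88 and 77 cells), and the low class had none of the 3 genes at that level (216 and 61 cells). These classes are ranges of a score and not cell types. In the isl1-labelled library 41 cells lay between 8 and 12 for aqp8a.1, 34 for esm1 and 70 for stab2, against 24, 10 and 28 in the other-labelled library. The median stab2 level was 0 per 10000 in the esm1-high and aqp8a.1-high classes of the isl1-labelled library, and 0 and 2.36 in those of the other-labelled library. In the stab2-high class the median aqp8a.1 level was 0.689 and 0.895 per 10000. Esm1-high cells also carried aqp8a.1, at a median of 92.6 and 68.0 per 10000. dab2 ran the other way to aqp8a.1 and esm1, from 151 CPM in esm1-high and 529 CPM in aqp8a.1-high cells to 2954 CPM in stab2-high cells of the isl1-labelled library.

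In the isl1-labelled library all 5 members had a higher level in the esm1-high and aqp8a.1-high classes together, called the arterial classes here, than in the stab2-high class. The ratio was 9.01 (7.09 to 11.6) for rgs5b, 10.7 (8.09 to 14.3) for cd81b and 1.94 (1.66 to 2.27) for gpm6ab. For gpm6aa it was 33.0 (8.95 to 275) on 128 against 2 UMIs, and for igsf5b 18.0 (6.01 to 88.9) on 105 against 3 UMIs. So 4 of 5 members were at least 2-fold higher, against 6.69% of the 7489 genes with at least 100 UMIs in this comparison. They ranked 16 (gpm6aa), 30 (igsf5b), 52 (cd81b), 65 (rgs5b) and 537 (gpm6ab) among those genes. gpm6aa and igsf5b reached the 100 UMIs only through the arterial classes. The members were chosen by a high ratio in the library with more arterial-class cells, so this count and these ranks support nothing. Among 4150 genes of the other-labelled library with at least 100 UMIs 4.65% were at least 2-fold higher. gpm6ab, the 1 member with enough UMIs, ranked 9 with a ratio of 22.9 (11.9 to 49.2). It reached that minimum only through the arterial classes, with 10 UMIs in stab2-high cells. The members below that minimum had ratios of 30.9 (13.6 to 86.9) for rgs5b, 11 (5.97 to 21.8) for cd81b, 5.95 (0.974 to 62.5) for gpm6aa and 3.17 (0.537 to 21.7) for igsf5b. The intervals of gpm6aa and igsf5b there reach below 1. Known arterial genes set the scale of the comparison in the isl1-labelled library, with ratios of 7.53 for the Notch ligand gene dll4, 8.68 for the VEGF receptor gene flt1, 10.3 for the ephrin gene efnb2a and 17.0 for the gap junction gene gja5a.

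**Figure D1:**
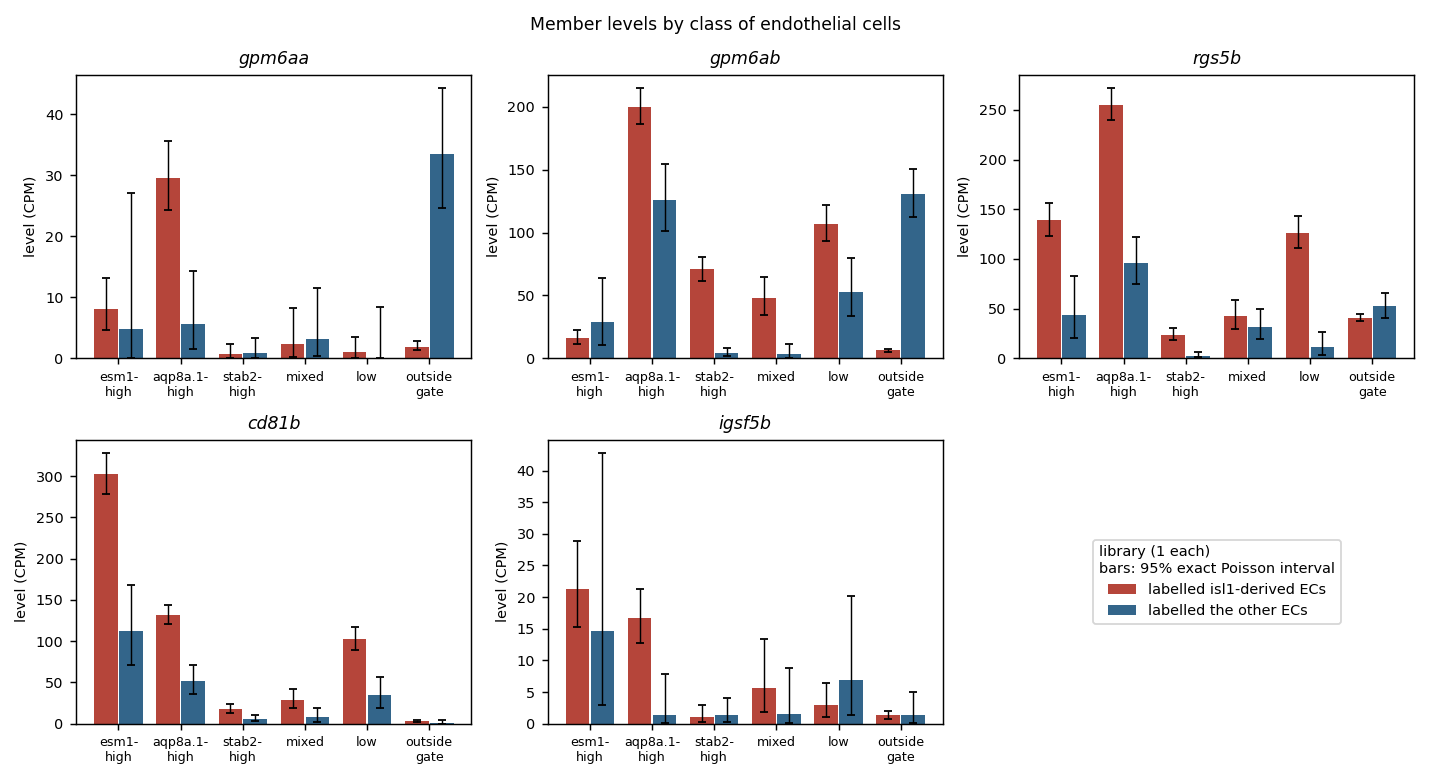
Level of each member in CPM (vertical axes, from 0) in the 5 classes of endothelial cells and in cells outside the endothelial gate, with red bars for the isl1-labelled library, blue bars for the other-labelled library and lines for exact Poisson 95% intervals. Among the 5 classes gpm6aa, gpm6ab and rgs5b stand highest in aqp8a.1-high cells of the isl1-labelled library, and cd81b in its esm1-high cells, at 302 CPM.

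The members divided by class. gpm6aa lay mostly in aqp8a.1-high cells. Its level in the isl1-labelled library was 29.6 CPM (24.4 to 35.6) there, 8.12 CPM (4.64 to 13.2) in esm1-high cells, 2.29 CPM in mixed cells, 0.984 CPM in low cells and 0.674 CPM (0.0816 to 2.43) in stab2-high cells. The aqp8a.1-high class thus held 83.6% of its endothelial UMIs, and neither of the arterial classes overlapped the stab2-high interval. The other-labelled library gave 5.59 CPM (1.52 to 14.3) in aqp8a.1-high cells on 4 UMIs, 1 UMI in esm1-high cells, 2 each in stab2-high and mixed cells and none in low cells, where a count of 0 allows up to 8.51 CPM at the two-sided 95% limit. Those few UMIs set no order of the classes. Its UMIs were also concentrated among cells. A single small subcluster of endothelial cells held 65.7% of the endothelial gpm6aa UMIs of the isl1-labelled library in 3.78% of the cells.

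gpm6ab was highest in aqp8a.1-high cells of both libraries, at 200.1 CPM (186 to 215) in the isl1-labelled library and 126 CPM (101 to 155) in the other-labelled library. In esm1-high cells it was low, at 16.2 CPM (11.1 to 22.9) and 29.2 CPM (10.7 to 63.6). In the isl1-labelled library the esm1-high level was even below that of stab2-high cells, 70.7 CPM (61.5 to 81.0), and below those of mixed and low cells, 48.0 (34.6 to 64.9) and 107 CPM (93.1 to 122). For the other-labelled library the stab2-high level was 4.56 CPM (2.19 to 8.39), the mixed level 3.18 CPM and the low level 53.0 CPM (33.6 to 79.6), so there the order of esm1-high and stab2-high cells was the opposite. Among cells thinned to 2000 UMIs each, 110 of 433 aqp8a.1-high cells (25.4%) of the isl1-labelled library held a gpm6ab UMI, against 7 of 231 esm1-high cells (3.03%) and 14 of 362 stab2-high cells (3.87%). At full depth the aqp8a.1-high share was 37.2%.

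The stab2-high level of gpm6ab in the isl1-labelled library came from few cells. Of its 210 UMIs, 171 lay in 15 cells of a subcluster led by prox1a, a transcription factor gene of lymphatic endothelium, which had 31 cells in the class. Without that subcluster the gpm6ab ratio of the arterial classes over stab2-high cells was 9.90. The 13 stab2-high cells of the other-labelled library in the prox1a-led subcluster held no gpm6ab UMI. rgs5b had 12 UMIs and cd81b 27 in the 31 prox1a-led cells.

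rgs5b was highest in aqp8a.1-high cells, at 255 CPM (239 to 272) in the isl1-labelled library and 96.4 CPM (75.0 to 122) in the other-labelled library. It followed in esm1-high cells at 139 CPM (123 to 157) and in low cells at 126 CPM (111 to 143), whose intervals overlap, then in mixed cells at 42.3 CPM (29.8 to 58.3) and stab2-high cells at 23.9 CPM (18.7 to 30.2). In the other-labelled library esm1-high cells had 43.9 CPM on 9 UMIs, mixed cells 31.8 CPM, low cells 11.5 CPM and stab2-high cells 2.74 CPM (1.00 to 5.96). A UMI of rgs5b was found in 87 of 433 aqp8a.1-high cells (20.1%) at 2000 UMIs, in 20 of 231 esm1-high cells (8.66%) and in 7 of 362 stab2-high cells (1.93%) of the isl1-labelled library. Single cells weighed heavily on this gene. The 3 richest cells held 66.2% of its stab2-high UMIs, 53.3% of its low-class UMIs, with up to 87 UMIs in a cell, and 50.7% of the aqp8a.1-high UMIs in the other-labelled library. Without the 3 richest cells of each sum its class ratio in the isl1-labelled library was 22.9.

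cd81b had the reverse order of the arterial classes. It stood at 302 CPM (279 to 328) in esm1-high cells, 132 CPM (121 to 144) in aqp8a.1-high cells, 102 CPM (88.9 to 117) in low cells, 28.6 CPM in mixed cells and 17.9 CPM (13.4 to 23.4) in stab2-high cells of the isl1-labelled library. The order of levels was the same in the other-labelled library, at 112 (71.0 to 168), 51.7 (36.4 to 71.3), 34.6 (19.4 to 57.1), 7.96 and 5.93 CPM (3.16 to 10.1), where the intervals of aqp8a.1-high and low cells overlap. A UMI was found in 85 of 231 esm1-high cells (36.8%) at 2000 UMIs, in 86 of 433 aqp8a.1-high cells (19.9%) and in 11 of 362 stab2-high cells (3.04%) of the isl1-labelled library. At full depth 59.7% of those esm1-high cells held it. Its stab2-high level rested partly on the prox1a-led cells, and without that subcluster its class ratio in the isl1-labelled library was 20.3.

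igsf5b was a low gene with the same side of the split. It stood at 21.3 CPM (15.4 to 28.8) in esm1-high cells and 16.6 CPM (12.8 to 21.3) in aqp8a.1-high cells of the isl1-labelled library, intervals that overlap, and at 5.72, 2.95 and 1.01 CPM (0.208 to 2.95) in mixed, low and stab2-high cells. The other-labelled library had 11 UMIs spread over the classes, 3 of them in esm1-high cells (14.6 CPM, 3.02 to 42.7), and no order can be read from them.

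Counts in erythroid-like cells, taken as cells that should lack these genes, give a rough background. Those cells are deeper than endothelial cells, so their background in CPM may not be that of endothelial cells. In erythroid-like cells, 94 cells with a median of 30607 UMIs, gpm6aa had no UMI, gpm6ab 1.06 CPM, rgs5b 6.0 CPM, cd81b 1.06 CPM and igsf5b 1.41 CPM. The stab2-high levels of gpm6aa and igsf5b in the isl1-labelled library are at or near that level. rgs5b was also detected in blood progenitor-like cells, as given below. Its 6.0 CPM in erythroid-like cells can thus not be read as background. The other-labelled library gave 5 of these 94 cells, so its own background is hardly measured. At full depth 4.26% of erythroid-like cells held an igsf5b UMI against 5.96% of endothelial cells of the isl1-labelled library (median 7925 UMIs), so the share of cells says little for this gene.

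Set directly against aqp8a.1-high cells in the isl1-labelled library, esm1-high cells had more cd81b and less gpm6aa and gpm6ab. cd81b was 2.29-fold higher in esm1-high cells (2.03 to 2.58), against 3.3% of 5903 genes at least 2-fold higher. gpm6ab had a ratio of 0.0811 (0.0551 to 0.115) and rank 5890 of 5903, and gpm6aa a ratio of 0.275 (0.152 to 0.466), against 4.07% of genes at least 2-fold lower. Both genes reached 100 UMIs only through the aqp8a.1-high cells. rgs5b had a ratio of 0.544 (0.474 to 0.623) and igsf5b one of 1.28 (0.846 to 1.92), both short of 2-fold. In the other-labelled library, where no member reached 100 UMIs, the ratios were 2.17 (1.23 to 3.75) for cd81b, 0.455 (0.200 to 0.914) for rgs5b and 0.232 (0.0831 to 0.526) for gpm6ab, on the same sides of 1. Against stab2-high cells of the isl1-labelled library, esm1-high cells had 16.9 times the cd81b level and 5.81 times that of rgs5b, with 7.3% of 5546 genes at least 2-fold higher, but 0.230 times that of gpm6ab (0.153 to 0.334), with 12.6% at least 2-fold lower. Each of these genes reached 100 UMIs only through the class where it was higher.

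The same division appeared along the level of esm1 in cells with little stab2. With esm1 under 10, at 10 to 50, 50 to 100 and 100 to 200 UMIs per 10000 (662, 183, 41 and 12 cells of the isl1-labelled library), cd81b stood at 122, 278, 388 and 426 CPM. gpm6ab stood at 168, 20.5, 0 and 0 CPM, rgs5b at 210.3, 152, 105 and 42.6 CPM, and gpm6aa at 19.6, 8.96, 6.36 and 0 CPM over the same bins. cd81b was higher and the other three lower in each higher esm1 bin, except that gpm6ab was at 0 in both of the last. The last bin, of 12 cells, is thin, and the order is already seen over the first 3 bins. Along aqp8a.1 the members did not divide. Over 5 bins of the same cells, from under 10 to 200 or more, with 124 to 239 cells each, gpm6aa stood at 0.896, 9.57, 22.8, 35.1 and 29.0 CPM and igsf5b at 3.59, 14.4, 18.1, 23.7 and 19.0 CPM. cd81b went from 118 to 238 CPM, gpm6ab from 98.6 to 169 CPM and rgs5b from 133 to 224 CPM. All 5 members were thus higher in the highest aqp8a.1 bin than in the lowest. The bins of the other-labelled library had 20 to 62 cells, and there gpm6ab had no steady order, at 51.7, 33.0, 128, 64.5 and 239.6 CPM, and igsf5b went from 6.74 CPM in the lowest bin to 0 in the highest. Along stab2, all endothelial cells of the isl1-labelled library gave bins of 898, 372, 92 and 13 cells. gpm6ab stood at 129, 75.0, 2.17 and 0 CPM, rgs5b at 192, 31.4, 6.51 and 0 CPM, and cd81b at 167, 21.8, 8.69 and 27.8 CPM. The last bin is thin, with cd81b on 1 UMI and a count of 0 allowing up to 102.5 CPM, so only the first 3 bins give an order.

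**Figure D2:**
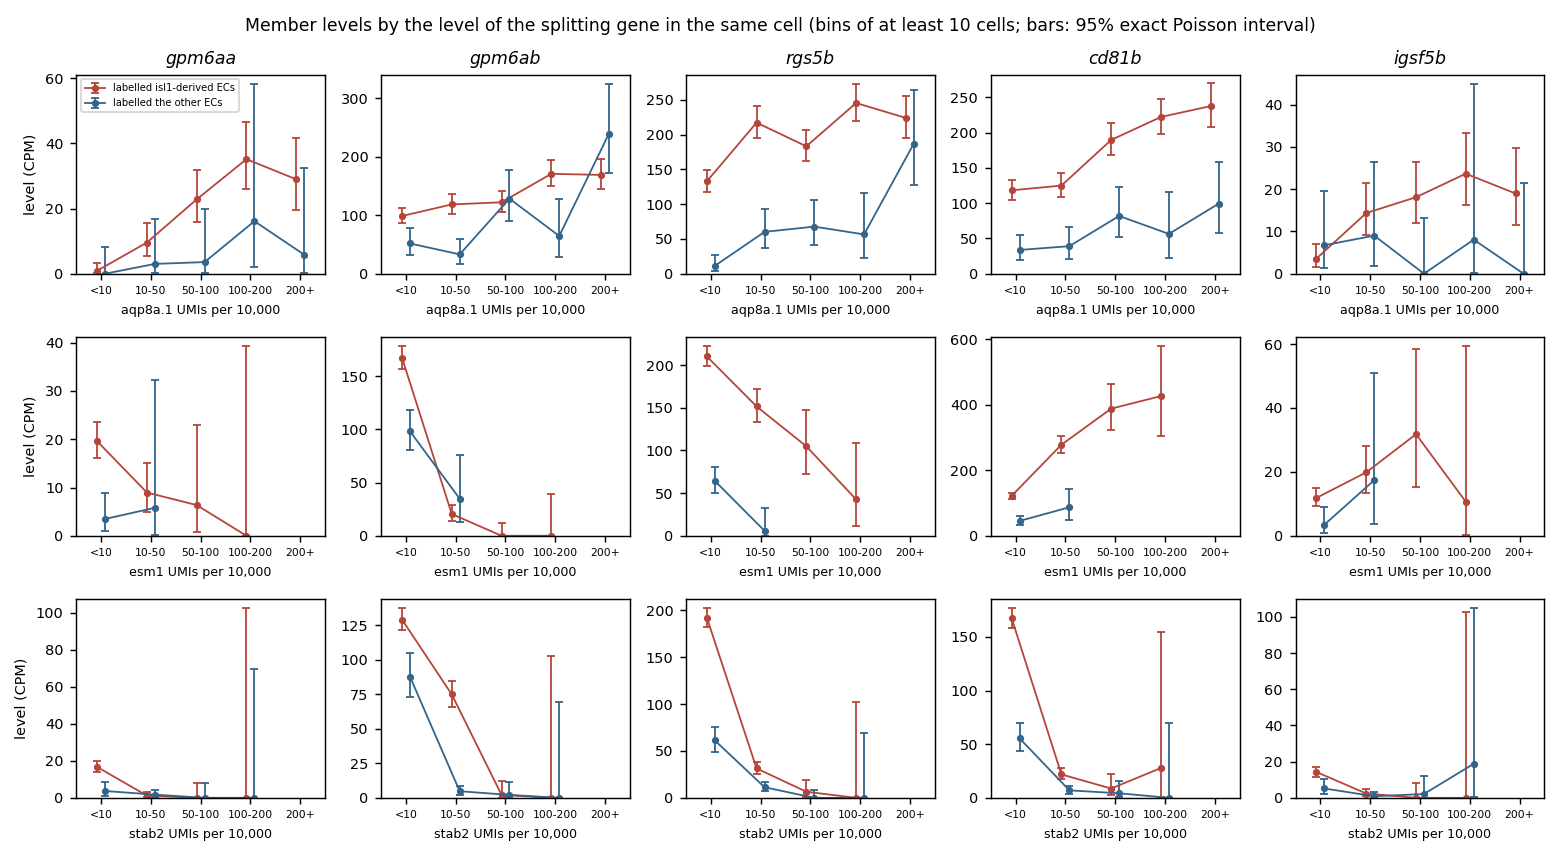
Level of each member in CPM (vertical axes) against bins of aqp8a.1, esm1 and stab2 in UMIs per 10000 (horizontal axes), for bins of at least 10 cells, with lines for each library. Along esm1 in the isl1-labelled library cd81b goes from 122 to 426 CPM and gpm6ab from 168 to 0 CPM.

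Clustering the gated cells alone gave 10 subclusters, called here by their leading genes. The one led by spi2, cox8b and cebpa was blood progenitor-like, with 46.9% of its cells in the aqp8a.1-high and 41.3% in the low class, and the one led by the muscle gene actc1b was left unnamed. Without both, every library and class ratio of the members that gave a value stayed within its counting interval, and the largest moves were those of the class ratios of gpm6ab and igsf5b in the other-labelled library, to 35.8 and 5.30. The members took part in the clustering, so their levels across subclusters are a description. gpm6aa was carried by a small subcluster in which it led with tmsb1, phlda2 and cxcr4b, 52 cells of the isl1-labelled library and 6 of the other-labelled library. It stood at 231 CPM (186 to 284) there over both libraries and was found in 72.4% of the cells, while each of the other subclusters was at 12.3 CPM or below. rgs5b, at 460.3 CPM (396 to 532), and igsf5b, at 81.4 CPM (55.7 to 115), were also highest in that subcluster over both libraries, which rests on the isl1-labelled library. In the other-labelled library rgs5b had 66.8 CPM there on 2 UMIs and 207 CPM in the gja5a-led subcluster on 58 UMIs. gpm6ab was highest in a subcluster led by gja5a and vegfc, 185 and 34 cells, at 414 CPM (385 to 444) in 63.9% of cells, where rgs5b stood at 371 CPM (344 to 400.2) and gpm6aa at 4.89 CPM. The copies gpm6aa and gpm6ab thus peaked in different subclusters.

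cd81b was highest in the subcluster led by apln and esm1, 266 and 24 cells, at 299.6 CPM (278 to 322) in 61.7% of cells. That subcluster held 49.4% of its endothelial UMIs in the isl1-labelled library in 19.3% of the cells. The prox1a-led subcluster, whose leading genes include lyve1a and olfm2a, had 122 and 29 cells and was second for gpm6ab over both libraries, at 259.7 CPM (232 to 290) in 24.5% of cells, with rgs5b at 153 CPM and cd81b at 129 CPM but no gpm6aa. The gpm6ab level there was 298 CPM in the isl1-labelled library and 44.2 CPM, on 8 UMIs, in the other-labelled library. rgs5b had 177 CPM and 16.6 CPM, the latter on 3 UMIs, and cd81b 140 CPM and 66.3 CPM, the latter on 12 UMIs. These levels in cells led by lymphatic genes go against a purely arterial name for gpm6ab, rgs5b and cd81b. For gpm6ab and rgs5b this rests mostly on the isl1-labelled library. Among the 31 stab2-high cells of that library in the prox1a-led subcluster, 15 held gpm6ab, 8 cd81b and 2 rgs5b. Few cells thus carried rgs5b in that part of the subcluster. The 3 subclusters with most stab2-high cells by number, led by sned1, slc7a7 and scn5lab, had 3.15 to 4.13 CPM of gpm6ab. They had 7.35 to 20.9 CPM of rgs5b and 6.30 to 8.69 CPM of cd81b. The slc7a7-led and scn5lab-led ones were 88.9% and 94.4% stab2-high. The sned1-led one was 23.9% stab2-high, 30.7% aqp8a.1-high and 29.8% mixed, so low member levels were also found where many cells were aqp8a.1-high.

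**Figure D3:**
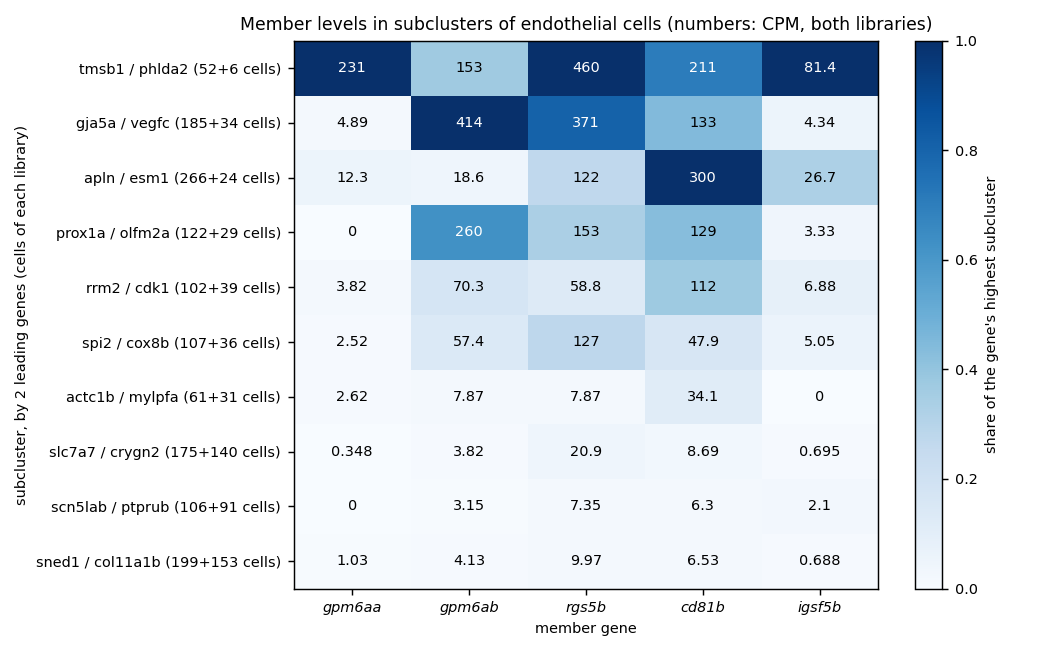
Level in CPM over both libraries (printed in each cell) of the 5 members in the 10 subclusters of gated cells, called by their leading genes, with colour showing the share of the gene's highest subcluster. gpm6aa peaks in 1 small subcluster at 231 CPM, gpm6ab in the gja5a-led and prox1a-led subclusters, and cd81b in the apln-led and esm1-led subcluster.

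Outside the endothelium the members parted further. gpm6aa and gpm6ab were not confined to the endothelium, with 233 CPM (169 to 313) and 905 CPM (774 to 1051) in a neural-like cluster of 22 cells, all from the other-labelled library, in which each cell held gpm6ab. cd81b and igsf5b had no UMI and rgs5b 5.29 CPM in that cluster. For gpm6ab this was the highest of all clusters, above the vegfc-led and gja5a-led cluster at 424 CPM. rgs5b was detected in blood progenitor-like cells, at 60.4 CPM in 33.5% of the cells of the largest such cluster, with a median of 22035 UMIs, against 9.57% of the deeper erythroid-like cells. cd81b stood at 2.61 CPM there. Outside the gate the library ratio of gpm6ab was 0.0482 (0.0372 to 0.0621), where 12.6% of 8561 genes were at least 2-fold lower in the isl1-labelled library. The cells in that ratio differ in kind between the libraries.

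Markers of other cell types were counted in the endothelial classes. The summed level of 10 neural markers was 3.70 to 6.86 CPM over the classes of the isl1-labelled library and 13.8 to 29.2 CPM over those of the other-labelled library. Its part in the member levels was not tested. The summed level of 9 mural markers was 115 CPM in aqp8a.1-high cells of the isl1-labelled library and 20.9 to 43.1 CPM in its other classes, and 126 CPM against 15.9 to 43.9 CPM in the other-labelled library. In those aqp8a.1-high cells of the isl1-labelled library 366 of the 434 UMIs of the list were of the Notch receptor gene notch3 and 60 of the smooth muscle myosin gene myh11a. tagln had 3 UMIs, pdgfrb and cspg4 had 2 each, abcc9 had 1, and acta2, kcne4 and ndufa4l2a were at 0. The mural sum was higher in aqp8a.1-high cells with than without a gpm6ab UMI at 2000 UMIs, 219 against 82.7 CPM, and with than without an rgs5b UMI, 160.3 against 102 CPM. The part of mural cells in these levels was not tested. The sum of 7 blood progenitor markers was 209 CPM in low cells, where rgs5b had 126 CPM, and 119.6, 29.9 and 44.8 CPM in aqp8a.1-high, esm1-high and stab2-high cells. Its part in the rgs5b level was not tested either.

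Over endothelial cells the library ratio, by which the genes were selected, was 5.34 (2.73 to 11.9) for gpm6aa, 5.33 (4.32 to 6.65) for cd81b, 5.29 (4.35 to 6.48) for rgs5b, 3.88 (2.09 to 7.99) for igsf5b and 3.45 (2.88 to 4.16) for gpm6ab, isl1-labelled over other-labelled library. All 5 were past 2-fold by that choice, as were 1.6% of the 9496 genes with at least 100 UMIs. The classes were not equally filled. The arterial classes held 17.2% (esm1-high) and 32.4% (aqp8a.1-high) of endothelial cells in the isl1-labelled library but 5.15% and 17.2% in the other-labelled library, and stab2-high cells 28.3% and 54.0%. With equal weight for each class the ratios were 1.25 for gpm6aa, 1.51 for igsf5b, 2.84 for cd81b, 3.85 for rgs5b and 3.12 for gpm6ab. That mean adds 0.5 to each class sum. In the other-labelled library a class held 0 to 4 UMIs of gpm6aa and 1 to 3 of igsf5b. Such low sums and the added 0.5 weigh heavily on the values of both genes, which therefore do not show what class filling does to them. The sorts on the dab2 and isl1 reporters can set the shares of the classes.

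Within a class the library ratios were mostly smaller than over all endothelial cells, but not in each class and for each gene. They use the UMIs and the contrast that chose the members. The shares of all genes and the rank given beside them thus support nothing. In aqp8a.1-high cells rgs5b had a ratio of 2.65 (2.07 to 3.43), cd81b 2.55 (1.83 to 3.67) and gpm6ab 1.59 (1.28 to 2.0), where 1.3% of 5080 genes were at least 2-fold higher. gpm6aa had 5.29 (2.01 to 19.8) there on 4 UMIs in the other-labelled library, and igsf5b 11.9 (2.06 to 477) on 63 against 1. In esm1-high cells cd81b had 2.70 (1.78 to 4.29) and rgs5b 3.17 (1.65 to 7.01), against 3.17% of 2963 genes, while gpm6ab lay on the other side of 1 with 0.555 (0.229 to 1.62) on 32 against 6 UMIs. In stab2-high cells gpm6ab had 15.5 (8.27 to 32.8), rank 2 of 5716 genes of which 0.35% were at least 2-fold higher, and this is the ratio that rests on the 15 prox1a-led cells. rgs5b had 8.74 (3.82 to 24.6) there on 71 against 6 UMIs. Mixed cells, which also had stab2, held 42 against 2 UMIs of gpm6ab. Their gpm6ab levels, given above, differed in the same direction as in stab2-high cells. In low cells rgs5b had 11 (4.64 to 34.1) on 257 against 5 UMIs, cd81b 2.96 (1.75 to 5.38) and gpm6ab 2.01 (1.31 to 3.24), against 1.45% of 3247 genes. The rgs5b sums of stab2-high and of low cells in the isl1-labelled library lay mostly in the few richest cells, as given above. dab2 also differed within the class, at 529 against 809 CPM in aqp8a.1-high and 151 against 546 CPM in esm1-high cells, so the classes were not alike between libraries in other genes. Whether that difference bears on the members was not tested.

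**Figure D4:**
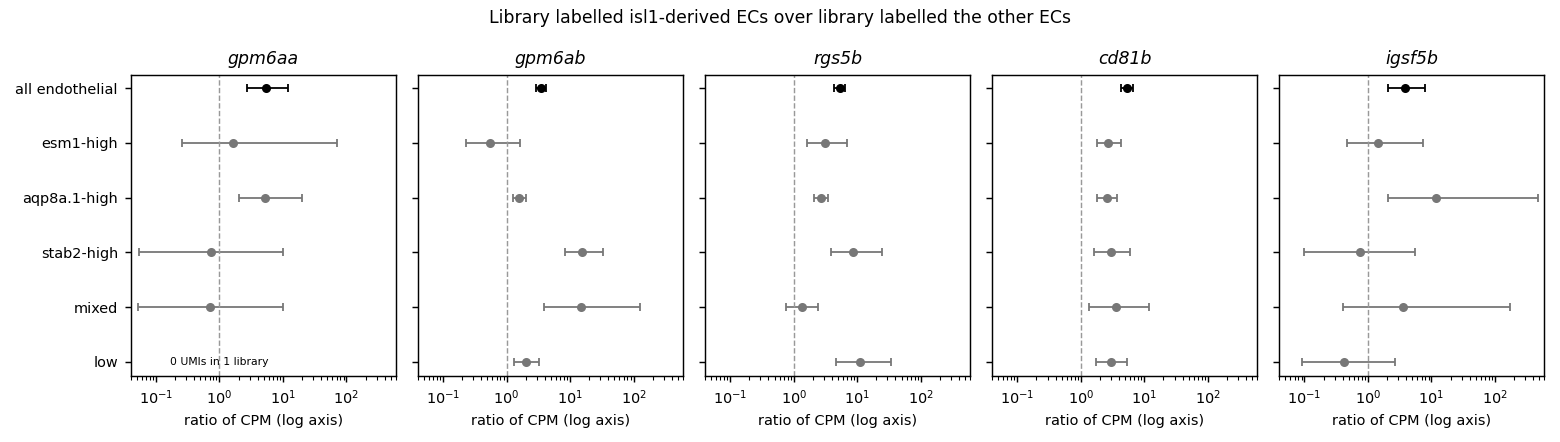
Ratio of CPM in the isl1-labelled library over the other-labelled library (log axis) for each member, over all endothelial cells and in each class, with lines for exact 95% intervals. All endothelial ratios lie between 3.45 and 5.34, and most of the ratios within the aqp8a.1-high and esm1-high classes are closer to 1.

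Within the gja5a-led, apln-led and prox1a-led subclusters most ratios of gpm6ab, rgs5b and cd81b were above 1. These ratios also use the UMIs and the contrast that chose the members. Over all subclusters only rgs5b was never below 1. gpm6ab had 0.423 (0.0908 to 1.66) in the slc7a7-led and 0.839 (0.509 to 1.44) in the spi2-led subcluster. cd81b had 0.848 (0.237 to 3.77) in the actc1b-led one. gpm6aa and igsf5b also fell below 1 in some subclusters, on few UMIs. The intervals of all ratios below 1 reach past 1. In the gja5a-led subcluster the ratio was 1.67 (1.31 to 2.15) for gpm6ab, 1.94 (1.48 to 2.58) for rgs5b and 1.91 (1.22 to 3.15) for cd81b. In the apln-led and esm1-led subcluster cd81b had 2.16 (1.45 to 3.36) and rgs5b 2.0 (1.1 to 4.05), while gpm6ab had 0.617 on 39 against 5 UMIs. The prox1a-led subcluster had ratios of 6.74 (3.38 to 15.7) for gpm6ab on 304 against 8 UMIs and 10.7 (3.60 to 52.4) for rgs5b on 181 against 3 UMIs, with 2.11 (1.17 to 4.19) for cd81b.

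Cells with several member genes were counted after each cell was thinned to 2000 UMIs. In the isl1-labelled library 49.7% of aqp8a.1-high cells held a UMI of at least 1 member (215 of 433) and 20.3% of at least 2, against 45.0% and 9.52% of 231 esm1-high cells and 8.56% of 362 stab2-high cells. In the other-labelled library the share with at least 1 was 22.7% of 97 aqp8a.1-high and 3.36% of 298 stab2-high cells. At full depth 4 cells held all 5 members, all of them aqp8a.1-high cells of the isl1-labelled library.

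The pair gpm6ab and rgs5b met in the same cells most often. In 1313 endothelial cells of the isl1-labelled library 48 held both, where the product of the shares gives 16.4, an odds ratio of 5.25 (3.42 to 7.97). Within its aqp8a.1-high cells 43 held both against 22.1 from the product, an odds ratio of 4.07, so the pairing was also seen inside a class. Those cells were 39.1% of the gpm6ab cells and 49.4% of the rgs5b cells of the class. gpm6aa and igsf5b met in 6 cells against 0.617, an odds ratio of 15.0, and in 5 aqp8a.1-high cells against 0.887. gpm6ab and cd81b met in 37 cells against 25.3 over all endothelial cells but in 24 against 21.8 within the aqp8a.1-high class, where full depth gave 88 against 64.4. gpm6ab and igsf5b met in 2 cells against 3.52, the 1 pair below the product over all endothelial cells, though at full depth its odds ratio was 1.1 against 0.531 here. Within the aqp8a.1-high class that pair was again below the product, at 2 against 4.06. So were gpm6aa with cd81b, at 4 against 4.77, and cd81b with igsf5b, at 3 against 3.18. Cells of the other-labelled library with gpm6ab and rgs5b numbered 5 against 0.521. The cells of a library share its depth and its free RNA, and these counts carry no test.

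**Figure D5:**
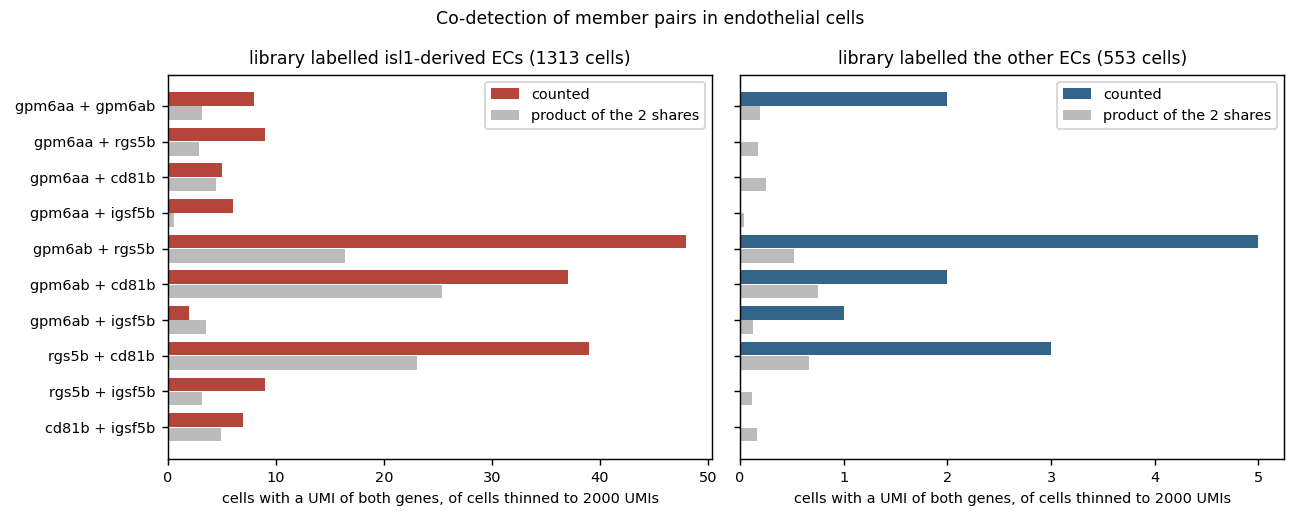
Cells with a UMI of both genes of each pair, at 2000 UMIs per cell, as counted and as the product of the 2 shares gives, for endothelial cells of the isl1-labelled library and of the other-labelled library (separate horizontal scales, in cells). gpm6ab with rgs5b stands out at 48 cells counted against 16.4.

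Aqp8a.1-high cells with a member UMI after thinning to 2000 UMIs were set beside those without one in the isl1-labelled library, with levels at full depth. Of 433 cells 24 held gpm6aa, 16 igsf5b, 110 gpm6ab, 87 rgs5b and 86 cd81b. As given above, 1 small subcluster held 65.7% of the endothelial gpm6aa UMIs. The summed level of the arterial list was 7800 against 3984 CPM for gpm6aa, 6962 against 4074 CPM for igsf5b, 5777 against 3657 CPM for gpm6ab, 5179 against 3932 CPM for cd81b and 4737 against 3998 CPM for rgs5b. It was higher with each member. dab2 stood at 23.9 against 553 CPM for gpm6aa and 9.64 against 545 CPM for igsf5b, and at 420.4 against 563 CPM for gpm6ab, 388 against 568 CPM for rgs5b and 319 against 575 CPM for cd81b. The few cells in which gpm6aa (24) or igsf5b (16) was detected thus had little dab2, although the sort was on a dab2 reporter. The GFP transcript itself was lower in them too, 167 against 784 CPM and 174 against 773 CPM.

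The nearest relatives of the members were looked up as well. cd81a, the second zebrafish copy of CD81, stood at 1197 CPM in the arterial classes and 2422 CPM in stab2-high cells of the isl1-labelled library, a ratio of 0.494 (0.478 to 0.511), and at 0.519 in the other-labelled library. The CD81 copies thus ran in opposite directions between these classes in both libraries. The library ratio of cd81a was 0.696 (0.679 to 0.713), while the direction of cd81b in that comparison was fixed by the choice of the genes. rgs5a had 6 and 1 UMIs and igsf5a 26 and 9 UMIs in endothelial cells of the 2 libraries, and plp1a had none, too few to show a pattern. gpm6bb was higher in the isl1-labelled library like the members, at 10.5 and 6.71 CPM, and gpm6ba stood at 5.33 and 5.03 CPM.

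Lists of the families and of endothelial programmes were counted at 1.5-fold. Between the arterial and stab2-high classes of the isl1-labelled library 15.1% of all genes were higher and 17% lower, with a median log2 ratio of 0.05. Of 20 measured tetraspanins 8 were higher and 5 lower (median 0.24). The tetraspanin gene tspan18a had a ratio of 13.5 and tspan36 one of 0.117, the ends of the list. Of 5 measured regulators of G-protein signalling 2 were higher, rgs5b and rgs3b with 5.81, and 1 was lower, rgs19 with 0.490. Of 5 tetraspanin partners 2 were higher, the integrin genes itga4 with 1.86 and itgb1b with 1.64, and igsf3 was lower with 0.216. Of 5 immunoglobulin junction genes 3 were higher, igsf5b, jam2a with 2.05 and esama with 1.60, and none lower. Both measured M6 genes, the members themselves, were higher. The arterial list had 10 of 11 higher and 1 lower (median 3.11), and the venous list 10 of 10 lower (median -3.00). Classes split on stab2 and aqp8a.1 must show this in part.

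Between the same classes of the other-labelled library 11.4% of genes were higher and 19.5% lower (median 0.02). There 2 of 15 measured tetraspanins were higher and 5 lower (median -0.12), and rgs3b with 4.60 was the 1 of 3 measured regulators that was higher. The arterial list had 7 of 8 higher and 1 lower (median 2.21). Between the libraries 5.13% of genes were at least 1.5-fold higher and 7.76% lower in the isl1-labelled library (median -0.06). The list counts of this comparison include members, which were chosen by this same ratio, so they support nothing. gpm6aa and gpm6ab are counted as higher among the M6 genes, rgs5b among the regulators and cd81b among the tetraspanins. Of 22 measured tetraspanins 3 were higher and 1 lower (median 0.17), of 6 regulators of G-protein signalling 3 and 1 (median 0.59), of 3 M6 genes 3 and 0 (median 1.78), of 13 arterial genes 11 and 1 (median 0.69) and of 10 venous genes 0 and 7 (median -0.86).

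The genes most like each member were taken from 10324 genes over 25 groups of cluster and library with at least 20 cells, by Pearson's r of log2(CPM + 5), as a description. The groups share libraries and depth. They include the neural-like cluster of 22 cells, in which gpm6aa and gpm6ab were high. For gpm6aa the genes were adgrl1a (0.902), stxbp1a (0.875), uchl1 (0.865), atpv0e2 (0.855) and pyyb (0.844). None of these was among the 5 genes most like gpm6aa over endothelial subclusters alone. For gpm6ab they included plxna1a (0.797), sorbs2b (0.785), klf7a (0.780) and limk2 (0.777), and for rgs5b alpl (0.771), foxc1b (0.766), pdgfbb (0.756), emilin2a (0.740) and cep162 (0.739). For cd81b they were crip2 (0.833), cav2 (0.829), igfbp7 (0.828), csrp2 (0.817) and trim69 (0.815), and for igsf5b cobll1b (0.879), zic2b (0.876), cxcr4a (0.848), slc35f1 (0.833) and slc45a2 (0.830). No member was among the 5 genes most like another over these 25 groups. Between members r was highest for rgs5b with cd81b (0.636) and cd81b with igsf5b (0.624), and it was 0.516 for gpm6ab with rgs5b.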

How the data were processed

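Single-cell RNA of 2 sorted tail fractions, 1 library each, was grouped by the sample labels. Raw counts of UMIs were deposited for each gene in each barcode, made by the authors with Cell Ranger on GRCz11, version 5.0.0 per the submitters' processing notes and 5.0.1 per the file headers. Counts come from RNA 3' ends, so CPM was not divided by length. Features sharing a symbol (1174 of 27421) were summed. No coordinates are given, since the gene table at hand is of another build.

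Barcodes under 500 genes or with 10% or more mitochondrial UMIs were left out (42 and 21). Doublets were called by Scrublet in scanpy 1.11.5 and 8 and 5 removed, a low share, so undetected doublets are possible. Clusters came from 2000 variable genes, 30 components, 15 neighbours and Leiden resolution 1.0 (leidenalg 0.10.2), over all kept cells and over gated cells, and were named X-like only from marker lists. Class sums used exact Poisson, shares Clopper-Pearson and ratios conditional binomial 95% intervals (scipy 1.17.1). Intervals and the limit for a count of 0 cover counting error only. Genes entered the all-gene comparisons when their 2 sums came to 100 UMIs or more. Shares were also taken after thinning cells to 2000 UMIs, which left out 62 and 30 gated cells.

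The members and all lists were chosen with earlier results of these data known. The genes named are the members, isl1, dab2, the reporters, the 5 most-like genes of each member (1 is not reported here) and, from each list, at most 4 of the most counted genes and 2 of the largest class ratios, some left out for length. Subcluster leading genes, and rgs5a, igsf5a, plp1a, rgs19, itga4, igsf3 and single mural markers where outside that rule, were picked with their values known. Ratios were checked on counts drawn from the real means with 4-fold changes. The draws were Poisson sums with no spread between cells. The check thus covers counting error only and cannot show how UMIs held by few cells affect ratios or intervals. For the library ratio (9513 genes) all changed genes (100% raised, 100% lowered) passed 2-fold, as did 0.0429% of unchanged ones, and intervals held the true ratio for 95.7%. For the class ratio these were 100%, 100%, 0.0274% and 95.5% (7501 genes, isl1-labelled library) and 100%, 100%, 0.0252% and 95.8% (4162 genes, other-labelled library). Alternatives covered the barcode and doublet filters, the gate, the class threshold, thinning, weighting of cells and classes, TMM scaling (edgeR 4.0.16, R 4.3.3), the richest cells, the UMI minimum and the Leiden resolution.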

Additional observations from a re-analysis of the deposited data

Results flagged for a closer look

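gpm6ab lay on opposite sides of 1 in the 2 libraries when esm1-high cells were set against stab2-high cells. The ratio was 0.230 (0.153 to 0.334) on 32 against 210 UMIs in the isl1-labelled library and 6.41 (1.91 to 19.5) on 6 against 10 UMIs in the other-labelled library. It was looked at again because the same contrast went in opposite directions in the 2 libraries. With 1 library per group the difference was not tested. The stab2-high sum of the isl1-labelled library holds the 171 UMIs of 15 prox1a-led cells, and the part of those cells in the difference was not tested.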

How the results depend on the processing

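Directions held under every alternative that gave a value for the library ratio (60 values, all above 1) and the class ratio (125 values, all above 1), and for co-detection in 19 of 20, the exception being gpm6ab with igsf5b, 1.1 at full depth against 0.531. The members were chosen by a high library ratio, in the library with more arterial-class cells. The counts of 60 and 125 thus support nothing. Class ratios of gpm6aa and igsf5b in the other-labelled library also have intervals that reach below 1. The library ratio over endothelial cells moved by more than its counting interval with equal class weights, to 1.25 for gpm6aa, 1.51 for igsf5b, 2.84 for cd81b and 3.85 for rgs5b, with thinning to 2.32 for gpm6aa and without the 3 richest cells to 7.07 for rgs5b. The class ratio of the isl1-labelled library moved for gpm6ab to 2.37 (thinned), 2.64 (richest cells out), 2.86 (class threshold of 20) and 9.90 (no prox1a-led subcluster), for rgs5b to 17.0 (gate of 20), 12.4 (mean over cells), 22.9 (richest cells out) and 13.9 (threshold of 20), and for cd81b to 14.8 (richest cells out), 23.2 (threshold of 20) and 20.3 (no prox1a-led subcluster). The equal-weight ratios of gpm6aa and igsf5b rest on classes with few UMIs, as given above. The settings without subclusters were chosen after seeing the data. gpm6ab was short of 2-fold in the main value and past it under those 4 settings, and at 2.03 with a gate of 5 and also with the mean over cells. The interval of the thinned value reaches down to 1.73. The counts of genes at least 2-fold higher and lower between the libraries, 152 and 111, were 385 and 391 with a minimum of 30 UMIs and 57 and 49 with 300, where more or fewer genes enter. The odds ratio of gpm6aa with cd81b was 3.22 at 4000 UMIs and 3.39 at full depth against 1.16, and that of gpm6ab with cd81b 2.98 at full depth against 1.73. The highest cluster level moved at Leiden resolution 2.0 to 1206 CPM for gpm6ab, 513 for rgs5b, 333 for cd81b and 70.8 for igsf5b, and at 0.5 to 270.4 for rgs5b, as clusters were split or joined. The cause of the other moves was not tested. The class ratio of gpm6aa (thinned, and richest cells out) and igsf5b (richest cells out) gave no value because a sum was 0. TMM scaling shifted log2 ratios by 0.15 between the libraries. No paired analysis was possible because each group has 1 library. That also limits every comparison of the libraries, and the 4174563 endothelial UMIs of the other-labelled library limit gpm6aa and igsf5b to 9 and 11 UMIs there.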

Other observations

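Cells with an isl1 UMI were looked at after their values were seen. In the isl1-labelled library 8 endothelial cells held an isl1 UMI, 27 UMIs in all with 19 of them in 3 cells. All 8 also held gpm6ab, with 1 to 20 UMIs each and a median of 6, against 258 of 1367 cells (18.9%, 16.8 to 21.1) without an isl1 UMI. The exact interval of the first share reaches down to 63.1%, and the median depths were alike, 8611 and 7911 UMIs. Of these 8 cells 6 fell in the gja5a-led subcluster. The gpm6ab level of the 8 cells was 719 CPM, and the 10 neural markers had no UMI in them. The whole gja5a-led subcluster had 440 CPM of gpm6ab in this library. Cells without an isl1 UMI came from all subclusters, so the shares above do not compare cells of like kind. In the other-labelled library 5 of 35 cells with an isl1 UMI held gpm6ab (14.3%, 4.81 to 30.3) and 38 of 548 without (6.93%). No test was made of this pattern.

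Over 19 groups of endothelial subcluster and library, a choice also made after seeing the data, r was higher than over all clusters for most pairs of members. The members took part in the clustering and lead some of these subclusters. The values of r are thus a description and support nothing. igsf5b had r = 0.834 with gpm6aa, against 0.359 over all clusters, and rgs5b r = 0.808 with gpm6ab, against 0.516, while gpm6aa and gpm6ab had 0.363 against 0.482. The gene most like gpm6aa was cobll1b (0.902), which was also the one most like igsf5b (0.949).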
